A study of Mus musculus with 10 samples.

Results

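The genes described here encode the molecular chaperones of the mouse: the heat shock proteins, the DNAJ cochaperones, the subunits of the cytosolic chaperonin CCT, the BAG cochaperones and the heat shock factors. They were chosen by symbol alone, as protein-coding genes named Hspa, Hspb, Hspd, Hspe, Hsph or Hsp90, Dnaja, Dnajb or Dnajc with a number, Cct2 to Cct8 and Tcp1, Bag1 to Bag6 and Hsf1 to Hsf5, with their lettered forms. This gave 95 of the 21774 protein-coding genes in the RefSeq annotation, 50 on the plus strand and 45 on the minus strand. Each was looked up in 2 lists of transcription start sites (TSSs) that the authors grouped, by clustering, as enriched for ARID2 in spermatogenic cells. ARID2 is the subunit specific to PBAF, a form of the SWI/SNF chromatin remodeler, and BRG1 is its ATPase.

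Spermatogenic cells came from wild-type CD1 mice whose spermatogenesis had been synchronized with WIN 18,446, an inhibitor of retinoic acid synthesis, given from P1 to P10, followed by 1 dose of retinoic acid at P11. P28 cells were collected 17 days after that dose and P28.5 cells 17.5 days after it. For either age CUT&RUN, in which an antibody-tethered nuclease releases the bound DNA, was done on 2 ARID2 libraries, 2 BRG1 libraries made with different antibodies and 1 control library without primary antibody. The cells were enriched for pachytene, diplotene and metaphase spermatocytes by age and filtering, not purified, and the labels do not say how many animals gave each library. The authors averaged the replicates before they grouped TSSs, so each list holds 1 answer per TSS, with no signal and no strand. A spread between replicates could therefore not be given for any gene, and no difference between genes or between ages could be tested over animals.

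Chaperones bind unfolded proteins and let them fold. HSP70 proteins hold and release clients in an ATP cycle that DNAJ proteins start and nucleotide exchange factors such as some BAG proteins complete. HSP90 matures kinases and receptors, and CCT folds actin and tubulin. In the male germ line several chaperones have forms of their own, such as HSPA2, which spermatocytes need to complete meiosis, and HSPA1L in spermatids, while HSF1 and HSF2 are the transcription factors that drive heat shock genes.

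The P28 list had 11553 rows at 7144 distinct positions, and the P28.5 list had 8514 rows at 5193. In either list a row is a chromosome, a position in mm10 and a gene symbol. The same position can fill several rows, so the number of rows of a gene does not measure ARID2 signal. Most listed positions were the lower-numbered end of a transcript, where a plus-strand gene starts and a minus-strand gene stops. Annotated starts on the minus strand were met by just 9 rows of the P28 list and 8 rows of the P28.5 list. A minus-strand gene can therefore be absent by name although its promoter carried ARID2, and the strands are given apart below. Of 47 marker genes of testis cell types, 4 were named at P28 (8.51%, against 16.8% of all protein-coding genes): Sycp3, Tnp1, Spaca1 and the Sertoli cell gene Cldn11. At P28.5 there were 2 (4.26%, against 11.6%), Sycp3 and Hormad1. The rows of Spaca1 and Cldn11 lay farther than 2000 bp from their starts. Of 9 spermatocyte markers 1 was named at P28 and 2 at P28.5, so the lists cannot serve as a check of the labelled cells. No marker of Leydig cells, endothelium, macrophages, peritubular cells or spermatogonia was named at either age, but a listed promoter is not a measure of expression.

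By name, 38 of the 95 chaperone genes were listed at P28 (40.0%, where 16.8% of all protein-coding genes were) and 25 at P28.5 (26.3%, against 11.6%). Of these, 23 were listed at both ages (24.2%, against 8.48%), 15 at P28 alone (15.8%, against 8.33%) and 2 at P28.5 alone (2.11%, against 3.13%). The other 55 were named in neither list. On the plus strand 29 of 50 genes were listed at P28 (58.0%, 95% Wilson interval 44.2 to 70.6, against 26.0% of all plus-strand genes) and 22 of 50 at P28.5 (44.0%, 31.2 to 57.7, against 20.4%), and 20 were listed at both ages (40.0%, against 14.8%). Every plus-strand gene counted here had such a row no farther than 2000 bp from an annotated 5′ end, which 23.9% of all plus-strand genes had at P28 and 20.2% at P28.5. Among minus-strand genes 9 of 45 were named at P28 (20.0%, against 7.61%) and 3 of 45 at P28.5 (6.67%, against 2.86%). The Wilson interval of the share at P28.5 contains the 2.86%. When a row of any symbol counted if it lay within 2000 bp of the gene's 5′ end, 14 of the 45 were counted at P28 (31.1%, against 9.58%) and 12 at P28.5 (26.7%, against 8.62%). The Wilson intervals cover counting error only, and genes are not replicates of the experiment.

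**Figure D1:**
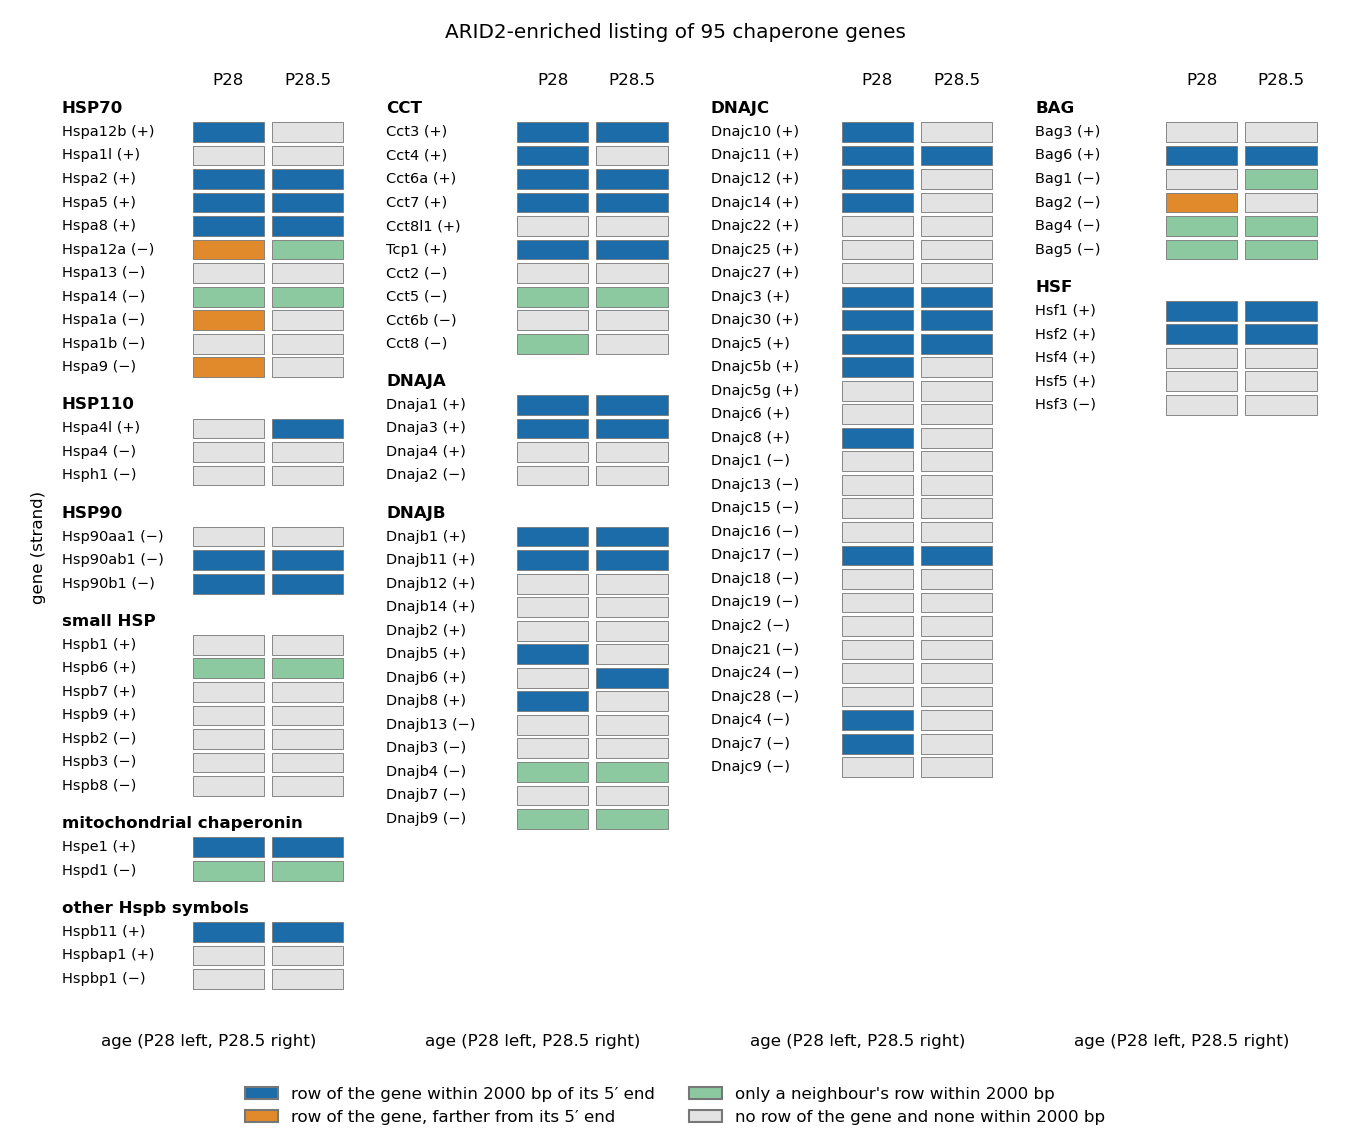
Listing of each of the 95 chaperone genes at P28 (left cell) and P28.5 (right cell), by family, with the strand of the gene in brackets; blue marks a row of the gene within 2000 bp of its 5′ end, orange a row of the gene farther away, green only a neighbour's row within 2000 bp, and grey neither. Blue cells run mostly along the plus-strand genes, and all 4 orange cells are minus-strand genes at P28, of which Hspa12a also had a neighbour's row near its start.

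**Figure D2:**
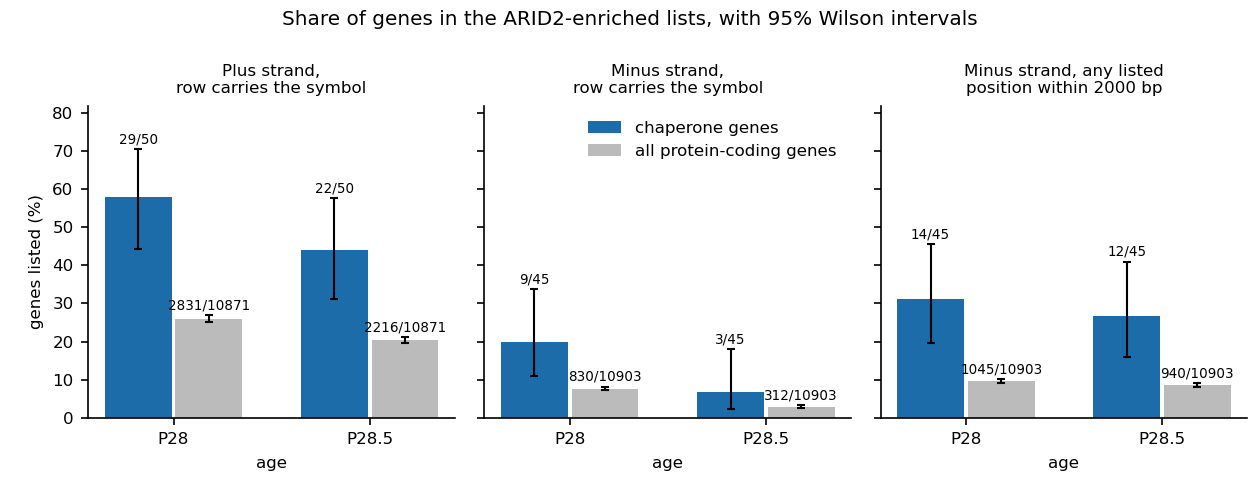
Share of genes listed (%, vertical axis) at each age for chaperone genes and for all protein-coding genes, for plus-strand genes by name, minus-strand genes by name, and minus-strand genes by a row of any symbol within 2000 bp of the 5′ end; error bars are 95% Wilson intervals and the fractions above them are counts. The chaperone bars reach 58.0% on the plus strand at P28 and 6.67% on the minus strand by name at P28.5, and each stands above the bar of all genes beside it. The interval of the 6.67% contains the 2.86% of all minus-strand genes.

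Listed positions are coordinates of RefSeq TSSs that the authors clustered, not measured places of ARID2. Their nearness to 5′ ends therefore reflects the annotation, and an identical position at both ages is the same TSS listed at each. The plus-strand chaperones had 52 own positions at P28. Of these, 31 equalled an annotated 5′ end exactly, and 50 lay within 50 bp of one. Of 43 positions at P28.5, 25 equalled a 5′ end and 41 lay within 50 bp. The positions beyond 50 bp were those of Dnajc5 at 305 bp and Hspa12b at 599 bp at P28, and of Hspa4l at 96 bp and Dnajb6 at 205 bp at P28.5. On the minus strand 10 of 15 own positions at P28 and all 5 at P28.5 lay within 2000 bp of a 5′ end of the gene, and none lay within 50 bp. Of the 23 genes listed at both ages, 21 had the same positions at both. The exceptions were Dnajc5, with 3 positions at P28 and 2 at P28.5, and Hsf2, with 1 and 2.

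**Figure D3:**
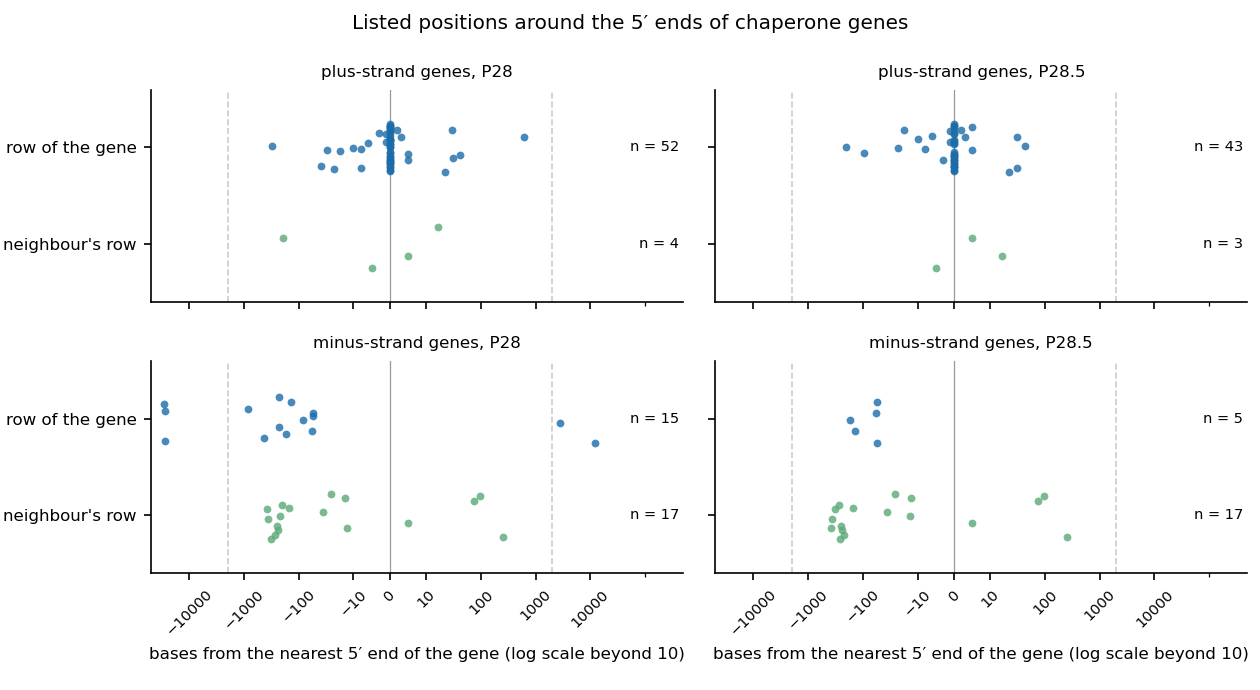
Distance of each listed position from the nearest 5′ end of the chaperone gene, in bases along the gene (horizontal axis, linear within 10 bases and logarithmic beyond), for plus-strand genes (top) and minus-strand genes (bottom) at each age; each point is 1 position, blue for rows that carry the gene's symbol and green for rows of a neighbour within 2000 bp, and dashed lines mark 2000 bp. The blue points of plus-strand genes pile up at 0, while those of minus-strand genes lie to its left or, for 5 points at P28, beyond the dashed lines. The positions are coordinates of clustered TSSs and do not show where ARID2 lay.

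Of the 11 HSP70 genes, 7 were named at P28 and 3 at P28.5 (63.6% and 27.3%, against 16.8% and 11.6% of all protein-coding genes). For Hspa1a, Hspa9 and Hspa12a the P28 rows lay 2797 to 29686 bp from the start, and the other 4 had a row within 2000 bp. Hspa8, which encodes the constitutive HSC70, Hspa5, which encodes the endoplasmic reticulum HSP70 known as BiP, and the germ cell gene Hspa2 were listed at both ages. Hspa2, on chromosome 12, had rows at positions 76403854, 76404176 and 76404370 at each age, 2 of which equalled an annotated start. Hspa8 had 1 row at each age, 3 bp upstream of its annotated start on chromosome 9. Hspa12b, an atypical HSP70, had 1 row at P28, inside the gene and 599 bp past the nearest of its 3 annotated 5′ ends. The testis form Hspa1l was named at neither age. Its nearest listed position lay 3344 bp from its start at P28 and 9427 bp at P28.5, and the P28 position belonged to the row of Hspa1a.

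Hspa1a, the stress-inducible HSP70 that lies back to back with Hspa1l on chromosome 17, shows how a name can mislead in these lists. Its row, at P28 alone, stood at position 34969359, which is the 3′ end of this minus-strand gene, 2797 bp from its start. No position was listed within 2000 bp of the start of Hspa1a, of Hspa1l or of the other inducible copy Hspa1b, for which the nearest was 10121 bp away at P28 and 22892 bp at P28.5. Hspa1a and Hspa1b are near-identical copies, so reads could be divided between them, and these values are uncertain for that reason. Hspa9, which encodes the mitochondrial HSP70 mortalin, was named at P28 alone by rows 28318 and 28323 bp from its start, the farther one at the start of Gm36037. Hspa12a was named at P28 by a position 29686 bp away, at the end of Shtn1. A row of Eno4 lay 247 bp inside Hspa12a at both ages. Hspa14, a ribosome-associated HSP70, had no row, but rows of Cdnf lay 152 and 251 bp upstream of its start at both ages. Hspa13, an HSP70 of the endoplasmic reticulum, had no row and no listed position within 2000 bp.

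The sequences before the starts of Hspa2, listed at both ages, and of Hspa1l and Hspa1a, which had no listed position at their starts, are shown from RefSeq (GRCm38.p6, the assembly behind mm10) to set the germ cell forms beside the inducible one. They are chr12:76404290-76404369 on the plus strand, chr17:34972453-34972702 on the plus strand and chr17:34972157-34972406 on the minus strand. Each ends at the base before an annotated start and leaves out annotated exons, which for Hspa2 shortens it to 80 bases. For Hspa2 that start is 76404370, the innermost of its 3 annotated 5′ ends. Its 80 bases therefore lie inside the gene, whose outermost 5′ end is 76403812, and not before it. Capitals mark CCAAT or its complement ATTGG and, in Hspa1a, a 2-unit heat shock element, GAANNTTC.
Hspa2: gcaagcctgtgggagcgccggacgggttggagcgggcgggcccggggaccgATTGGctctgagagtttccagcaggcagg
Hspa1l: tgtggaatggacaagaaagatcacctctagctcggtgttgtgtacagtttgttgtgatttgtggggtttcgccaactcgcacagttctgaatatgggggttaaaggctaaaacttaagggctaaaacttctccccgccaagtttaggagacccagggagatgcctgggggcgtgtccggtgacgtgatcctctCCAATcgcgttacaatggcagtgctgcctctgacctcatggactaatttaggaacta
Hspa1a: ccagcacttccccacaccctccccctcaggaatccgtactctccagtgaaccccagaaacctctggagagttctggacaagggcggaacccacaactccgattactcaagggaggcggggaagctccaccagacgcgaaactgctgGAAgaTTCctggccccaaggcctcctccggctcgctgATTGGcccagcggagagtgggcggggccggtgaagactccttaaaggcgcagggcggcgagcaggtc
All 3 hold the CCAAT letters, 29 bases before the innermost start in Hspa2, 57 before the start in Hspa1l and 67 in Hspa1a. The 2-unit element of Hspa1a begins 104 bases before the start, as it does in Hspa1b.

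The 3 HSP110 genes encode large HSP70 relatives that act as nucleotide exchange factors. Hspa4l, which is abundant in testis, was listed at P28.5 alone, with rows at its annotated start and at a second position 96 bp upstream of another 5′ end. At P28 its nearest listed position was 35629 bp away and belonged to Slc25a31. Hspa4 and Hsph1, both on the minus strand, had no row, and their nearest listed positions lay 130488 and 451687 bp away at both ages.

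All 3 HSP90 genes chosen by symbol lie on the minus strand, and 2 of them were named at both ages through positions upstream of their starts. This was 66.7% (interval 20.8 to 93.9), against 8.48% of all protein-coding genes. Hsp90ab1, the constitutive cytosolic HSP90, had 1 row 54 bp upstream, at the start of the plus-strand gene Gm35399. Hsp90b1, the endoplasmic reticulum HSP90 known as GRP94, had 16 rows at 1 position on chromosome 10, 86705618, which is 174 bp upstream, and the plus-strand gene Ttc41 had rows 367 bp upstream. The inducible Hsp90aa1 had no row, and its nearest listed position lay at a distance of 40834 bp at P28, and of 41554 bp at P28.5. None of the 7 small heat shock protein genes (Hspb1, Hspb2, Hspb3, Hspb6, Hspb7, Hspb8 and Hspb9) was named at either age. The interval, up to 35.4%, contains the 16.8% and 11.6% of all protein-coding genes. A row of Gm38670 lay 16 bp past a 5′ end of Hspb6 at both ages. The other 6 had no listed position within 2000 bp. Some symbols of the same form name other proteins. Hspb11, which encodes the intraflagellar transport protein IFT25, was listed at both ages with 4 own positions, all within 31 bp of a 5′ end, while Hspbap1 and the HSP70 exchange factor gene Hspbp1 were not named.

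Hspe1 and Hspd1 encode HSP10 and HSP60, the mitochondrial chaperonin, and share a promoter on chromosome 1. The row of Hspe1 stood at its annotated start, 55088148, at both ages. The same position lies 95 bp inside Hspd1, counted from the outer of its 2 annotated 5′ ends, 55088243, which had no row of its own. Of 9 mitochondrial chaperone genes among those chosen by symbol, 5 were named at P28, counting the distant rows of Hspa9, and 4 at P28.5. These were 55.6% (interval 26.7 to 81.1) and 44.4% (18.9 to 73.3), against 16.8% and 11.6% of all protein-coding genes. The 4 on the plus strand, Hspe1, Dnaja3, Dnajc11 and Dnajc30, were all listed at both ages (interval 51.0 to 100%), against 14.8% of all plus-strand genes. DNAJA3 is the partner of the mitochondrial HSP70 and DNAJC11 belongs to the complex that shapes the inner membrane. On the minus strand Dnajc15 and Dnajc19, which serve protein import, and Dnajc28 had no row and no listed position within 2000 bp.

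The heat shock element bound by HSF1 and HSF2 was searched as 3 alternating units, GAA, TTC and GAA with any 2 bases between units, on both strands of the RefSeq promoters (250 bases before the start to 50 after). It was found in 4 of the 77 chaperone genes with a promoter entry (5.19%, against 0.595% of 17492 genes): Hspe1, Hspd1, Dnajb6 and Hsph1. Windows of 25 bases around it are shown because these 4 genes divide by listing: Hspe1 was listed at both ages, Hspd1 through the row of Hspe1, Dnajb6 at P28.5 alone and Hsph1 at neither. They lie at chr1:55088053-55088077 for Hspe1 (plus strand) and Hspd1 (the same bases, minus strand), chr5:29735846-29735870 for Dnajb6 (plus strand) and chr5:149636282-149636306 for Hsph1 (minus strand). Capitals mark the units.
Hspe1: ggtccgTTCtaGAAccTTCcggaag
Hspd1: cttccgGAAggTTCtaGAAcggacc
Dnajb6: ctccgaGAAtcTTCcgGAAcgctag
Hsph1: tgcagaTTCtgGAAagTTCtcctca
The element begins 89 bases before the start of Hspe1, 139 before the inner 5′ end of Hspd1, 55087932, 46 before the nearer start of Dnajb6 and 15 bases past an annotated start of Hsph1. The outer 5′ end of Hspd1 lies upstream of the element, so that the element is inside that transcript. Hspe1 and Hspd1 hold a second, overlapping match 5 bases away. The 2-unit form GAANNTTC was found in 17 chaperone genes (22.1%, against 8.44% of all genes), 4 among the 30 with a row at either age and 13 among the 47 without. This split is by name. The 4 include Hspa1a, whose row stood at its 3′ end, and the 13 include Hspd1 and Hspb6, which had a neighbour's row near a 5′ end. The other arrangement, TTCNNGAA, was found in 9 (11.7%, against 8.73%). The 3-unit form contains both, so these counts overlap.

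CCT is a ring of 8 different subunits, and 5 of 10 genes of the family were named at P28 and 4 of 10 at P28.5. On the plus strand this was 5 of 6 at P28 (83.3%, interval 43.6 to 97.0), with 4 of 6 at P28.5 (66.7%, 30.0 to 90.3), against 26.0% and 20.4% of all plus-strand genes. Tcp1, which encodes the first subunit, Cct3, Cct6a and Cct7 were listed at both ages, each at its annotated start. Cct4 was listed at its annotated start at P28, and its nearest listed position at P28.5 was 478310 bp away. Cct8l1 had no row. The 4 minus-strand genes Cct2, Cct5, Cct6b and Cct8 were not named. Rows of Fam173b lay 223 and 270 bp upstream of Cct5 at both ages, and a row of B130034C11Rik lay 204 bp upstream of Cct8 at P28. Cct6b, the testis form of Cct6a, was 708680 bp from the nearest listed position at P28, and 16721 bp from it at P28.5. For Cct2 these distances were 157591 and 160634 bp.

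DNAJ proteins bring clients to HSP70 through their J domain, and 18 of the 45 were named at P28 and 10 at P28.5 (40.0% and 22.2%, against 16.8% and 11.6% of all genes). Among plus-strand DNAJ genes these counts were 15 of 25 (60.0%, interval 40.7 to 76.6) and 9 of 25 (interval 20.2 to 55.5%), against 26.0% and 20.4%, and the interval at P28.5 contains the latter. In class A, Dnaja1 and Dnaja3 were listed at both ages and Dnaja2 and Dnaja4 at neither. Dnaja1, the main cytosolic class A partner of HSP70, had 3 rows at 3 annotated starts, and a row of the microRNA gene Mir207 stood 5 bp from one of them. In class B, Dnajb1, the HSP40 of the cytosol, and Dnajb11 were listed at both ages, each at annotated starts. Dnajb5 and the testis gene Dnajb8 were listed at P28 alone, and Dnajb6 at P28.5 alone with 6 rows. Dnajb8 had 1 row at its annotated start, position 88222268 on chromosome 6, and its nearest listed position at P28.5 was 137795 bp away. Dnajb2, Dnajb12 and Dnajb14 had no row, and of the minus-strand genes Dnajb3, Dnajb4, Dnajb7, Dnajb9 and Dnajb13 none was named. Dnajb4 lay under the rows of Fubp1, of which 28 stood 5 to 36 bp from its start at both ages, and a row of the microRNA gene Mir5627 lay 245 bp upstream of Dnajb9 at both ages. The sperm axoneme gene Dnajb13 and the testis gene Dnajb3 lay 22285 and 134969 bp from the nearest listed position at P28.

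The bases before the start of Dnajb1, listed at both ages, and of Dnajb8, listed at P28 alone, are shown because they differ in CpG content: the CpG count divided by the count that the bases would give by chance, within 500 bp of the start, was 0.967 for Dnajb1, the highest of the plus-strand chaperones, and 0.349 for Dnajb8. They are chr8:83607925-83608174 and chr6:88222018-88222267, both on the plus strand and from RefSeq, with CCAAT or its complement in capitals.
Dnajb1: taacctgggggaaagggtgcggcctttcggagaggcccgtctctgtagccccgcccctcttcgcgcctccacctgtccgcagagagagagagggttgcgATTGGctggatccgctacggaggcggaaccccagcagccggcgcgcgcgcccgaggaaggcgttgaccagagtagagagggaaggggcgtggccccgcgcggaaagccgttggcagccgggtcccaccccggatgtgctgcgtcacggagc
Dnajb8: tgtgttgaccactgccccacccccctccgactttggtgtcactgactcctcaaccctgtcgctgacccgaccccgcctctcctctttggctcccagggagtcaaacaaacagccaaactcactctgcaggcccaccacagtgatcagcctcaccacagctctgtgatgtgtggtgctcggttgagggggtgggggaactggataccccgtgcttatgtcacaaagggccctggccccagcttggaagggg
Dnajb1 holds the CCAAT letters 151 bases before its start, and none of the letters searched in these printed stretches (CCAAT and the heat shock and ER stress elements) was found in that of Dnajb8.

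In class C, 12 of 28 genes were named at P28 and 5 at P28.5, and all 5 of the latter were named at both ages. On the plus strand this was 9 of 14 at P28 (64.3%, interval 38.8 to 83.7), with 4 of 14 at P28.5 (28.6%, 11.7 to 54.6). The shares of all plus-strand genes were 26.0% and 20.4%, and the interval at P28.5 contains the latter. Listed at both ages were Dnajc3, Dnajc5, Dnajc11 and Dnajc30 on the plus strand and Dnajc17 on the minus strand. DNAJC5 is the cysteine string protein of synaptic vesicles, and its gene had 6 rows at P28 and 5 at P28.5. The rows of Dnajc17 stood 54 to 139 bp upstream of its start, inside the neighbouring plus-strand gene Zfyve19. Listed at P28 alone were Dnajc8, Dnajc10, Dnajc12, Dnajc14 and Dnajc5b, the last of them a testis relative of Dnajc5, and on the minus strand Dnajc4 and Dnajc7. The rows of Dnajc4 lay 83, 428 and 842 bp upstream of its start. Those of Dnajc7 lay 229 and 234 bp upstream of one of its starts, inside the non-coding exon part of Nkiras2. On the plus strand Dnajc5g, Dnajc6 (auxilin), Dnajc22, Dnajc25 and Dnajc27 had no row. On the minus strand Dnajc1, Dnajc2, Dnajc9, Dnajc13, Dnajc15, Dnajc16, Dnajc18, Dnajc19, Dnajc21, Dnajc24 and Dnajc28 had neither a row nor a listed position within 2000 bp.

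The chaperones of the endoplasmic reticulum cut across these families: 5 of 12 were named at P28 (41.7%, interval 19.3 to 68.0), with 4 at P28.5 (33.3%, 13.8 to 60.9), against 16.8% and 11.6% of all protein-coding genes. Hspa5, Hsp90b1, Dnajb11 and Dnajc3 were listed at both ages and Dnajc10, a disulfide reductase, at P28 alone. Hspa13, Dnajb9, Dnajb12, Dnajb14, Dnajc1, Dnajc16 and Dnajc25 were not named. DNAJB11 and DNAJC3 are J-domain partners of BiP, and GRP94 works downstream of it. Hspa5 had 2 rows at its annotated start on chromosome 2, 34772090, Dnajb11 had 3 rows at its start on chromosome 16, 22857845, and Dnajc3 had 1 row at its start on chromosome 14, 118937932, at each age.

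The ER stress element, CCAAT and CCACG with any 9 bases between them, was searched on both strands after the listing was known. It was found in 3 of the 77 chaperone promoters (3.90%, against 0.166% of 17492 genes, which is 29 genes): Hspa5, Hsp90b1 and Dnajc3, all 3 listed at both ages. Their bases before the start are shown because they carry this element and the listed positions. They are chr2:34771840-34772089 on the plus strand for Hspa5, chr10:86705445-86705694 on the minus strand for Hsp90b1 and chr14:118937682-118937931 on the plus strand for Dnajc3, again from RefSeq. Capitals mark CCAAT, the second motif where it follows at that distance, and the complements of either.
Hspa5: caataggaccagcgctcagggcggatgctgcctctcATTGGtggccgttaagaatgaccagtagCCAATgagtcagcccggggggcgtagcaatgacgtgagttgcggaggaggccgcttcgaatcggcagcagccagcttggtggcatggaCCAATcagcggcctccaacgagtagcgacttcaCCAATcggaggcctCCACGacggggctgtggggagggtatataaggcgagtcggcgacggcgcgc
Hsp90b1: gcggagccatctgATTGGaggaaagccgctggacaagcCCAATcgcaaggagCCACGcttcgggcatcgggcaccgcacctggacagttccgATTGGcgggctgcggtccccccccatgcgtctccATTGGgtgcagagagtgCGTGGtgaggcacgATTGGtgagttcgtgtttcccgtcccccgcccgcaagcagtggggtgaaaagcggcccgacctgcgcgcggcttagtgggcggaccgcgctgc
Dnajc3: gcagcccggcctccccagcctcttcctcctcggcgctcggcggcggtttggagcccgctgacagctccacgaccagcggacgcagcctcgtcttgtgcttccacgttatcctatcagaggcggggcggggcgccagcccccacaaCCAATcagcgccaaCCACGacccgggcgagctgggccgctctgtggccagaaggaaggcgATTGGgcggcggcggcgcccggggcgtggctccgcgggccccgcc
The element begins 65 bases before the start of Hspa5 and 105 before that of Dnajc3, and Hsp90b1 holds it at 212 and 107 bases. The 16 rows of Hsp90b1 stand inside the printed stretch, 174 bases before its start and between these elements. The CCAAT letters occur 4 times in the stretch of Hspa5, 5 times in that of Hsp90b1 and 2 times in that of Dnajc3. A match describes these letters and not a bound site.

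Of the 6 BAG genes, Bag6 was named at both ages and Bag2 at P28. These were 33.3% at P28 (interval 9.68 to 70.0) and 16.7% at P28.5 (3.01 to 56.4). The intervals contain the 16.8% and 11.6% of all protein-coding genes. Bag6, which guards membrane proteins in the cytosol and is needed for spermatogenesis, had the most rows of any chaperone gene, 18 at each age at the same 7 positions, all within 22 bp of an annotated 5′ end on chromosome 17. The gene has 47 annotated transcripts, and its row count is not a strength of ARID2 signal. The rows of Bag2 stood at the 3′ end of the gene, 12082 bp from its start. Bag3, a partner of the small heat shock proteins, was not named. Rows of neighbours lay near the starts of the other 3: those of Lsm1 327 and 382 bp upstream of Bag4 and those of Apopt1 13 and 14 bp upstream of Bag5 at both ages, and that of Chmp5 259 bp upstream of Bag1 at P28.5 alone. Among the 5 heat shock factors Hsf1 and Hsf2 were listed at both ages (40.0%, interval 11.8 to 76.9, against 8.48% of all protein-coding genes). Hsf1 had 7 rows at 3 positions within 30 bp of a 5′ end on chromosome 15. Hsf2, which is abundant in spermatocytes, had 1 row at P28, and 2 rows on chromosome 10 at P28.5, where the added position was 57486733. Hsf4, the lens factor, Hsf5, a testis factor of meiotic prophase, and Hsf3 had no row, and the nearest listed position to Hsf5 was 24114 bp away at both ages.

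Of 9 testis forms (Hspa2, Hspa1l, Hspa4l, Cct6b, Dnajb3, Dnajb8, Dnajb13, Hsf5 and Hspb9), 2 were named at P28 and 2 at P28.5 (22.2% at each age, Wilson interval 6.32 to 54.7), against 16.8% and 11.6% of all protein-coding genes. Hspa2 was listed at both ages, Dnajb8 at P28 alone and Hspa4l at P28.5 alone. On the plus strand this was 2 of 6 at each age (33.3%, 9.68 to 70.0), against 26.0% and 20.4%. These intervals contain the shares of all genes. The 5 heat-inducible genes (Hspa1a, Hspa1b, Hsph1, Dnajb1 and Hsp90aa1) had 1 member listed at its start, Dnajb1, at both ages, and 4 of them lie on the minus strand. By name, with the row at the 3′ end of Hspa1a, 2 were counted at P28 and 1 at P28.5. These were 40.0% (interval 11.8 to 76.9) and 20.0% (3.62 to 62.4), and the intervals contain the 16.8% and 11.6% of all protein-coding genes.

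Chaperone promoters were rich in CpG. The median of the CpG ratio, observed over expected, was 0.756 for the 95 genes and 0.516 for all protein-coding genes. Among plus-strand chaperones it was 0.820 for those listed at both ages, 0.637 for those at P28 alone and 0.560 for those in neither list, and over all plus-strand genes the same medians were 0.781, 0.625 and 0.354. In the highest of 5 CpG quintiles 16 of 20 plus-strand chaperones were listed at P28 (80.0%, against 46.3% of all plus-strand genes of that quintile) and 15 of 20 at P28.5 (75.0%, against 47.1%). In the fourth quintile the counts were 7 of 13 (53.8%, against 39.5%) and 4 of 13 (30.8%, against 33.2%), and in the middle quintile 2 of 9 (22.2%, against 21.4%) and 1 of 9 (11.1%, against 12.1%). The 2 lowest quintiles held 8 plus-strand chaperones, of which Dnajc5, Dnajc5b, Hsf2 and Dnajb8 were listed at P28 and Dnajc5 and Hsf2 at P28.5. The ratio was taken at the outermost 5′ end of each gene, which need not be the listed TSS. That end is 181518858 for Dnajc5 and 57483766 for Hsf2, while their listed positions begin at 181520180 and 57486385. Their low ratios, 0.175 and 0.195, therefore do not describe the listed TSSs. The same holds for Hspa12b, listed at P28 in the middle quintile. Its ratio, 0.364, was taken at 131127412, and its listed position is 131139592. The unlisted genes of the highest quintile were Dnajb6, Dnajb12, Dnajb14 and Dnajc6 at P28, and Cct4, Dnajc10, Dnajb12, Dnajb14 and Dnajc6 at P28.5.

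**Figure D4:**
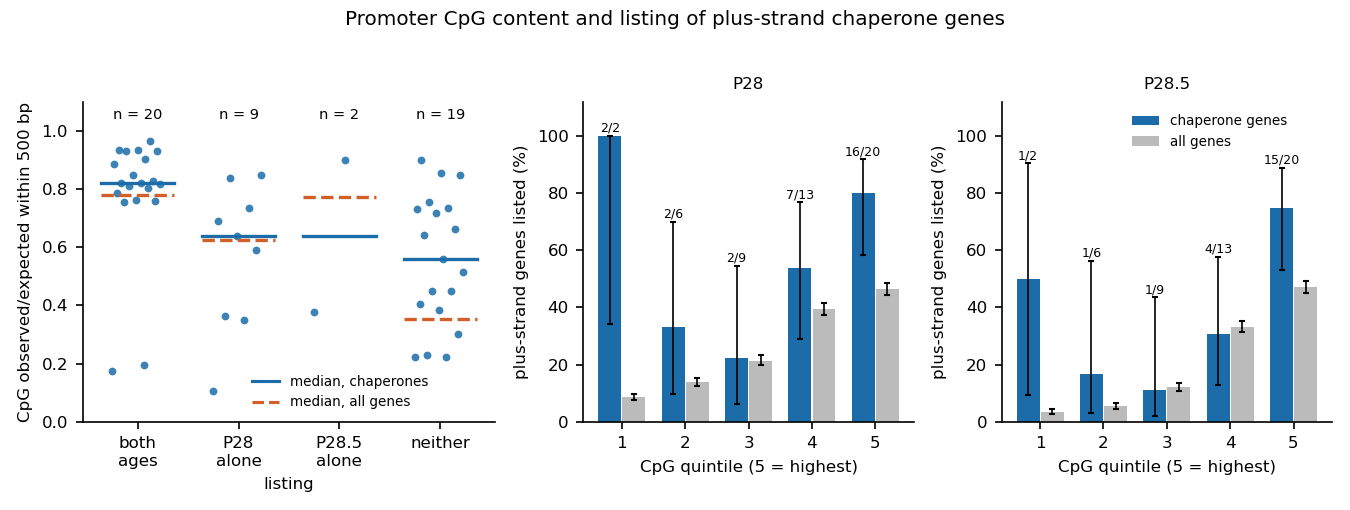
Left, CpG content (observed over expected, within 500 bp of the outermost annotated 5′ end, vertical axis) for plus-strand chaperones by listing, 1 point a gene, with medians of these genes (solid) and of all plus-strand genes of the same listing (dashed). Middle and right, share of plus-strand genes listed (%) in each CpG quintile at P28 and P28.5, with 95% Wilson intervals and counts, where chaperones reach 80.0% and 75.0% in quintile 5 and lie near all genes in quintile 3.

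Other promoter letters were counted in the same windows and on both strands. The GC box GGGCGG was found in 58 of 77 chaperone genes (75.3%, against 49.2%), the ETS core CCGGAA in 28 (36.4%, against 20.9%) and the letters TGACG in 38 (49.4%, against 26.2%), while the full cyclic AMP element TGACGTCA, which contains them, was found in 1 (1.30%, against 2.54%). The NRF1 letters, GCGC and GCGC with any 2 bases between them, were found in 17 (22.1%, against 9.61%). The TATA letters TATAAA were found in 4 (5.19%, against 14.8%), none of them named in a list: Dnajc19, Dnajc24, Hspb3 and Hspb6. Of these, Dnajc19, Dnajc24 and Hspb3 lie on the minus strand, and Hspb6 had a row of Gm38670 near a 5′ end. CCAAT was found in 33 (42.9%, against 42.3%), in 17 of the 30 genes with a row and 16 of the 47 without. Both splits are by name, which under-counts minus-strand genes. GC box, NRF1, ETS and TGACG letters contain CpG or G and C alone, and the chaperone promoters had the CpG medians given above.

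Between the ages the chaperone lists were nested for the most part. The 23 genes listed at both ages were 60.5% of those named at P28 and 92.0% of those named at P28.5, where for all protein-coding genes these shares were 50.5% and 73.1%. Of 17 chaperones named at 1 age, 2 (11.8%) were named at P28.5, against 681 of 2495 for all genes (27.3%). Of the 9 plus-strand chaperones listed at P28 alone, 7 were DNAJ genes: Dnajb5, Dnajb8, Dnajc5b, Dnajc8, Dnajc10, Dnajc12 and Dnajc14. The others were Cct4 and Hspa12b. The list at P28 was the longer, and both were made from averages. The paper also reports more round spermatids, and markedly fewer leptotene and zygotene spermatocytes, at P28.5. A change in ARID2 with age therefore cannot be told apart from a different cluster border or a different mix of cells. The paper reports that most TSSs listed at P28 overlapped its called ARID2 peaks, but only a minority did at P28.5. A listed TSS is therefore not the same as a called peak. The paper also called far more peaks at P28 than at P28.5, so the overlaps cannot rank the lists.

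For comparison, 52 other folding genes were chosen by function and not by symbol. They encode HSP90 and HSP70 cochaperones, the mitochondrial HSP90, prefoldin subunits, CCT cofactors, AAA+ chaperones, lectin chaperones and regulators of the heat shock factors. The P28 list named 11 of them (21.2%) and the P28.5 list 12 (23.1%), and on the plus strand 7 of 22 (31.8%) and 8 of 22 (36.4%). The shares of all protein-coding genes were 16.8% and 11.6%, and of all plus-strand genes 26.0% and 20.4%, so that the values at P28 were near the background. Listed at both ages were Cdc37, which brings kinases to HSP90, Ptges3, which encodes the HSP90 cochaperone p23, and Pih1d1, with Tomm70a, Grpel1 (the exchange factor of the mitochondrial HSP70), Pfdn4, Pdcl3, Lonp1, Canx and Calr. Sugt1 was listed at P28 alone, and the HSP90 activator gene Ahsa1 and the mitochondrial disaggregase gene Clpb at P28.5 alone. The mitochondrial HSP90 gene, Trap1, lies on the minus strand and was named at neither age. The difference between these 52 genes and the chaperones was not tested.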

How the data were processed

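ARID2 CUT&RUN was measured in 2 libraries at each of P28 and P28.5. The authors trimmed reads with TrimGalore, aligned them to mm10 with Bowtie2, made tracks with samtools and DeepTools without duplicates, scaled them with csaw, divided them by the control on a log2 scale, averaged the replicates with WiggleTools and clustered RefSeq TSSs by k-means. The deposited files list cluster-1 TSSs as positions, with no count, signal or score, so depth per TSS is unknown and no interval on signal could be given. The RefSeq release and bin size are not given in the sources used here. BRG1 and control libraries were not analysed here.

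Symbols were matched, as written or by unique synonym, to the RefSeq annotation of GRCm38.p6, and positions to transcript ends. A gene counted as listed when a row carried its symbol. Alternatives were any position within 2000 or 500 bp of a 5′ end, own rows within 2000 bp, plus-strand genes, at least 2 rows and a background without olfactory and vomeronasal receptors. CpG ratios used 500 bp on either side of the outermost annotated 5′ end of a gene. Promoters came from RefSeq for 77 of 95 genes (97 entries), from 250 bases before to 50 after the start. Shares have 95% Wilson intervals. 1 gene of the comparison list of folding genes is not reported here. No test was run, since no library has a value. The counting was tested on simulated lists. All 95 genes are named; the members and lists were chosen with earlier results of these data known. Python 3.11.15, pandas 2.3.3, scipy 1.17.1, pysam 0.24.0 and matplotlib 3.10.9 were used.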

Additional observations from a re-analysis of the deposited data

How the results depend on the processing

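Counting plus-strand genes alone raised the shares of chaperone genes listed to 58.0% at P28, 44.0% at P28.5 and 40.0% at both ages. The same 3 values came from plus-strand genes with a row of their symbol within 2000 bp of a 5′ end, an alternative added after seeing the data. Accepting a row of any symbol within 2000 bp of the 5′ end gave 36.8% at P28.5, and within 500 bp it also gave 36.8%, where all protein-coding genes rose from 11.6% to 14.8% and 14.3%. Requiring at least 2 rows lowered the shares to 24.2% at P28, 17.9% at P28.5, 14.7% at both ages and 9.47% at P28 alone, where all protein-coding genes fell to 9.40% at P28 and 7.07% at P28.5. The other 23 recomputed shares of the 95 genes moved by less than their counting interval. No paired analysis was possible because the replicates were averaged before the lists were made, and for the same reason leaving out a replicate was not run. The lists give presence without signal, so a gene near the border of the cluster and one far inside it look alike, and absence of a row does not show absence of ARID2, most of all for minus-strand genes.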

Other observations

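Names and places parted for 4 minus-strand chaperones at P28: the rows of Bag2 and Hspa1a stood at their 3′ ends, 12082 and 2797 bp from their starts, and those of Hspa9 and Hspa12a stood at least 28318 bp away. At P28.5 no chaperone row stood more than 205 bp from a 5′ end of the gene. Read by place and not by name, 8 minus-strand chaperones at P28 (Bag4, Bag5, Cct5, Cct8, Dnajb4, Dnajb9, Hspa14 and Hspd1) had a neighbour's row within 2000 bp of their start and none of their own.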
